A study of Mus musculus with 2 samples.

Results

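The chaperonin containing TCP-1, CCT (also called TRiC), was followed through its 8 subunit genes, Tcp1 (the alpha subunit), Cct2 (beta), Cct3 (gamma), Cct4 (delta), Cct5 (epsilon), Cct6a (zeta), Cct7 (eta) and Cct8 (theta). The genes were chosen by their names in the array files, where 12 of 41174 non-control probes carried them. They were 8 of 27745 different gene names. Tcp1, Cct2, Cct3 and Cct4 had 2 probes each and the other genes had 1. The family was picked with the ratios of these same arrays known, so its ratios are a description and carry no p-value.

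CCT is a cytosolic machine built from a pair of stacked rings, each with 1 copy of all 8 subunits. It takes up unfinished proteins into its cavity and closes over them by using ATP. Actin and tubulin depend on it to reach their native fold, and prefoldin hands them over to it. The subunits are separate genes on different chromosomes that are needed together for a working ring.

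RNA came from G1E-ER-GATA-1, a mouse erythroid line whose own GATA-1 gene is null and to which a fusion of GATA-1 with the oestrogen receptor's ligand-binding part was added. Cells of both groups received β-estradiol for 24 h, which turns the fusion protein on, so no uninduced cells and no cells without the fusion enter the comparison. One group had been transfected with siRNA against ETO2, a corepressor encoded by Cbfa2t3, and the other with control siRNA. Each of 2 two-colour arrays set the groups against each other, with ETO2 siRNA RNA always in Cy3 (green) and control RNA always in Cy5 (red), so an effect of the dye on a probe and an effect of the siRNA cannot be told apart. The comparison asks what losing ETO2 does to transcript levels while GATA-1 drives maturation. The labels number the arrays as replicates without saying that they came from separate cultures. Every SD measures only the spread between these 2 arrays. Every p-value uses that spread after moderation towards its level over all kept probes, and it too covers only these 2 arrays. All ratios are given as ETO2 siRNA over control siRNA on the log2 scale, after background correction and loess scaling within each array.

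The median spot signal was 82.8 and 77.5 scanner units in the ETO2 siRNA channel of the 2 arrays, and 104.8 and 104.9 in the control channel. Cbfa2t3 itself was at 74.6% of the control level by its brighter probe (log2 ratio -0.42 ± 0.05, SD, n = 2; limma adjusted p = 9.98e-05) and at 85.6% by the other. Of 9 erythroid markers, 8 were kept in the analysis and all 8 were called higher after ETO2 siRNA with loess scaling, but both dyes were saturated on each array for the globin genes Hbb-bt and Hba-a1, whose ratios give no direction. The cell type field of the labels also names embryonic stem cells, and probes of 4 of 5 markers of those cells (Pou5f1, Nanog, Sox2 and Zfp42) were not well above background. Among markers of other cell types, 2 of 4 myeloid, 2 of 3 mast cell, 2 of 2 lymphoid and 1 of 2 fibroblast genes were kept. Elane, Itgam, Tpsb2 and Col1a1 were not kept, and the part of other cell types in the CCT ratios was not tested.

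Every probe is a 60-base oligonucleotide of the array's design. The sequences below are those on which the results turn, 5′ to 3′. The Cct3 and Cct2 pairs are shown because their probes gave unlike readings of 1 gene, Cct6a because it had the highest ratio, and Cct5 because its spot was saturated.
Cct3 A_52_P685666: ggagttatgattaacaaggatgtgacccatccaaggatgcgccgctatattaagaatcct
Cct3 A_52_P620100: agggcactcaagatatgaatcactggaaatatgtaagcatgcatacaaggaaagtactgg
Cct2 A_52_P369232: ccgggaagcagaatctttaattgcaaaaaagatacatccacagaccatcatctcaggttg
Cct2 A_51_P363914: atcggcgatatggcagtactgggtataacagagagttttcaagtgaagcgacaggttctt
Cct6a A_52_P363718: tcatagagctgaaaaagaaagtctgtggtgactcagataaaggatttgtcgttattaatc
Cct5 A_51_P144783: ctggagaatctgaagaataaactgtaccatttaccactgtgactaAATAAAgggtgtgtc
Capitals in the Cct5 probe mark the last match to AATAAA, the letters of a polyadenylation signal, near the probe's 3′ end. The GC content of the 12 probes ran from 35.0% to 51.7% with a median of 40.9%, against a median of 40.0% over all probes. The dimmer probes of Tcp1, Cct3 and Cct4 were named in the array file from records of cDNA clones, and the other 9 from RefSeq transcripts. The genome position of the probes was not analysed here.

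Most CCT subunit probes read higher after ETO2 siRNA once dye brightness had been equalised by loess. All 12 were well above background in both channels on both arrays. Of these, 10 lay above 0 on both arrays, 1 lay below 0 on both (the clone-derived Cct3 probe) and 1 changed sign between arrays (Cct7). Without the probes of saturated control spots, 8 of 10 lay above 0 on both arrays. Their median log2 ratio was 0.24, with a range from -0.23 to 0.52, against a median of -0.01 and quartiles of -0.14 and 0.12 over the 24430 kept probes. This direction depends on the scaling: when each array was only centred on its median, 10 of the 12 probes lay below 0 and their median was -0.34. At an adjusted p under 0.05 in limma, 8 CCT probes were called higher and 1 lower, where 18.8% of all kept probes were called higher and 20.7% lower. With median centring 0 were called higher (0 also at an unadjusted p under 0.05 in limma) and 9 lower, where 3.11% and 63.7% of all kept probes were. There 4 of the 12 lay above the median of all kept probes. Since the family was picked on this same contrast, nothing is read from these counts.

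**Figure D1:**
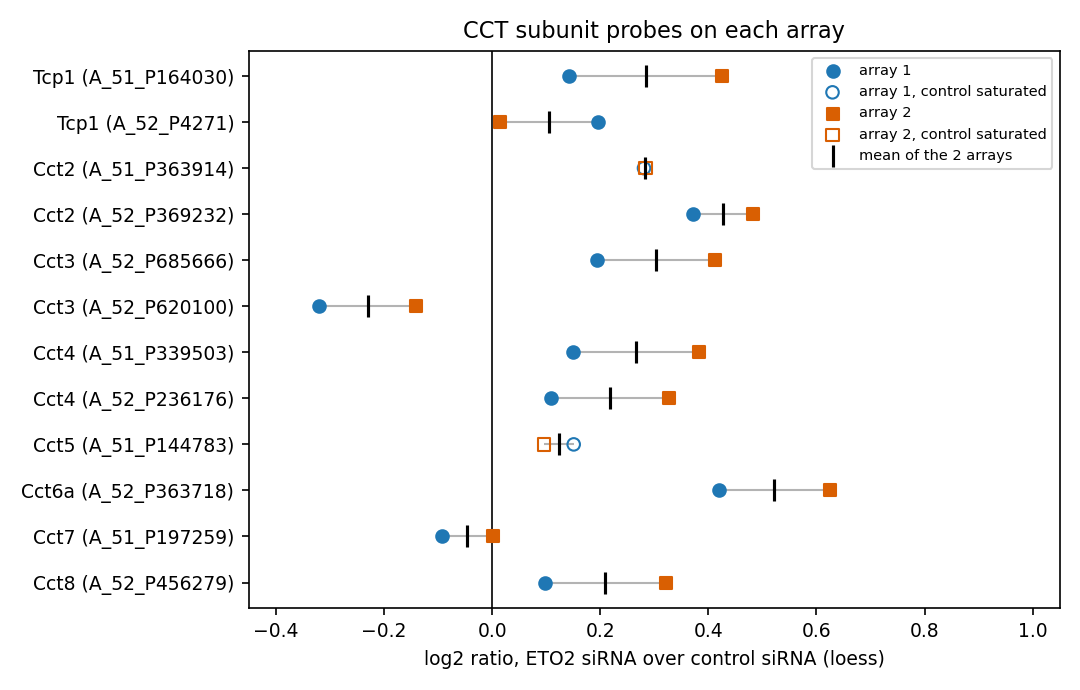
Log2 ratio of ETO2 siRNA over control siRNA (horizontal axis) for each of the 12 CCT probes on array 1 (circles) and array 2 (squares), with their mean (black bar); open symbols mark probes whose control channel was saturated. Cct6a stands farthest to the right, the dimmer Cct3 probe A_52_P620100 stands to the left of 0 on both arrays, and 10 of 12 probes read higher on array 2.

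Cct6a (A_52_P363718), the zeta subunit, had the highest ratio of the family with loess scaling. Its log2 ratio was 0.42 on array 1 and 0.62 on array 2, a mean of 0.52 ± 0.15 (SD, n = 2) or 1.44-fold. On each array it lay above every other CCT probe with loess scaling. With the processed signals the saturated Cct2 probe had a higher mean (0.462 against 0.445). With median centring the dimmer Cct4 probe did (0.063 against 0.045), but that scaling does not correct for brightness. Less the median of probes of like brightness, Cct6a stood at 0.52 there and that Cct4 probe at 0.21. The Cct6a mean stood at percentile 98 of all kept probes. The mouse genome also holds Cct6b, a testis-enriched paralogue, which read -0.12 and did not pass the test.

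Cct2 (beta) was read by 2 probes. The probe A_52_P369232, far from saturation, had log2 ratios of 0.37 and 0.48, a mean of 0.43 ± 0.08 or 1.34-fold, which came next after Cct6a with loess scaling. With the processed signals it read 0.27, below the brighter probes of Cct4 (0.38) and Cct3 (0.35) and below Cct8 (0.28). The other Cct2 probe, A_51_P363914, filled the control channel, as described below. Cct6a read above this Cct2 probe within each array (0.42 against 0.37 on array 1, 0.62 against 0.48 on array 2). Both read higher on array 2, and 2 arrays do not fix their order.

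Cct3, Tcp1, Cct4 and Cct8 formed a close middle group. Cct3 (gamma, A_52_P685666) read 0.20 and 0.41, a mean of 0.30 ± 0.15 or 1.23-fold. Tcp1 (alpha, A_51_P164030), after which the complex is named, read 0.14 and 0.43, a mean of 0.28 ± 0.20 or 1.22-fold. Cct4 (delta, A_51_P339503) read 0.15 and 0.38, a mean of 0.27 ± 0.16 or 1.20-fold. Each of these was low on array 1 and high on array 2, and the values overlap with each other throughout. Cct8 (theta, A_52_P456279) read 0.097 and 0.32, a mean of 0.21 ± 0.16 or 1.16-fold. The differences among these 4 means were smaller than their SDs, but all 4 probes read higher on array 2, and that shift is part of each SD. Within each array Cct8 was the lowest of the 4 with loess scaling. With the processed signals Tcp1 was the lowest (0.193 against 0.277 for Cct8).

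Cct7 (eta, A_51_P197259) was the only subunit whose brightest probe had a mean below 0. It read -0.093 on array 1 and 0.001 on array 2, a mean of -0.046 ± 0.066 or 0.969-fold. Neither array reached the lowest value of Cct8 (0.097). The Cct7 control spots, at 54198 and 51734 units, held no saturated pixel but came near the software's saturation value of 65205. With the processed signals that the scanner software made, Cct7 read 0.0636, so its side of 0 is not fixed.

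Saturation limited 2 probes. The control spot of Cct2 A_51_P363914 had 56 of 56 pixels saturated on array 1 and 56 of 62 on array 2. The control spot of Cct5 (epsilon, A_51_P144783) had 53 of 53 and 52 of 52 pixels saturated. In the ETO2 siRNA channel neither probe had a saturated pixel: Cct2 stood at 41657 and 35763 units, and Cct5 at 38134 and 31641. The control level of these probes is then known only as a minimum, which inflates the ratio, and no fold can be given. Their computed log2 ratios were 0.28 on both arrays for Cct2 and 0.15 and 0.096 for Cct5, and are not read as differences. The SD of the Cct2 pair, 0.00249, comes from ratios with 1 channel at the scanner's ceiling and is not read as precision. That of Cct5, also saturated on both arrays, was 0.0388. Cct5 has no other probe, so the array gives no usable ratio for that subunit, whereas Cct2 has the unsaturated A_52_P369232. The saturated minus the unsaturated probe came to -0.09 on array 1 and -0.20 on array 2 with loess scaling. With the processed signals their order turned (0.27 for the unsaturated against 0.46 for the saturated). Whether the 2 Cct2 probes disagree is therefore not fixed. Across the 10 unsaturated probes, 7 were called higher and 1 lower, where 17.7% and 20.7% of all probes were so called once saturated ones were left out, and the median stayed at 0.24.

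**Figure D2:**
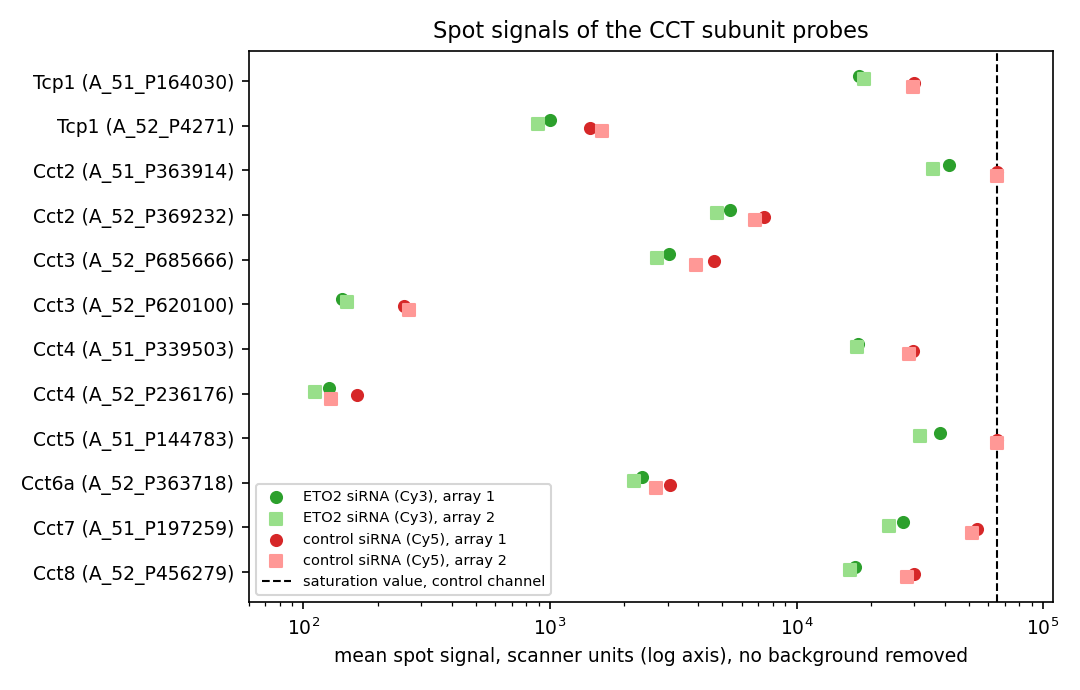
Mean spot signal in scanner units (log axis, background not removed) of each CCT probe in the ETO2 siRNA channel (green) and the control channel (red) on both arrays, with the saturation value of the control channel as a dashed line. The brighter Cct2 probe and Cct5 touch the line in the control channel, Cct7 comes near it, and the green signal is below the red one for every probe before scaling.

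The raw signals of the family spanned a wide range. On array 1 the control spot of the dimmer Cct4 probe A_52_P236176 stood at 165.26 units over a local background of 46, while that of Tcp1 A_51_P164030 stood at 30036. Before scaling, the control spot was the brighter one for all 12 probes on both arrays, as for Cct6a, with 2365 against 3058.3 units on array 1 and 2190.2 against 2689.6 on array 2. The positive ratios therefore rest on the dye scaling. Levels of different probes are not set against each other, since each oligonucleotide binds with its own strength.

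The CCT probes were also placed beside probes of like brightness. When kept probes were ranked by mean signal and divided into 10 equal classes, 6 CCT probes (Tcp1 A_51_P164030, Cct4 A_51_P339503, Cct5, Cct7, Cct8 and the saturated Cct2) fell into the brightest class. In that class 29.9% of probes were called higher and 28.7% lower, the quartiles of the ratio were -0.20 and 0.21, and 440 of 2443 probes were saturated in the control channel. Tcp1 and Cct4 lay above that upper quartile and Cct8 and Cct7 within the quartiles, while the saturated Cct2 and Cct5 probes cannot be placed. Cct6a and Cct3 A_52_P685666 (both in class 8) and the unsaturated Cct2 probe (class 9) lay above the upper quartile of their classes. Of the dimmer clone probes, that of Cct4 (class 3) lay above its upper quartile, that of Tcp1 (class 7) within the quartiles and that of Cct3 (class 4) below the lower quartile.

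**Figure D3:**
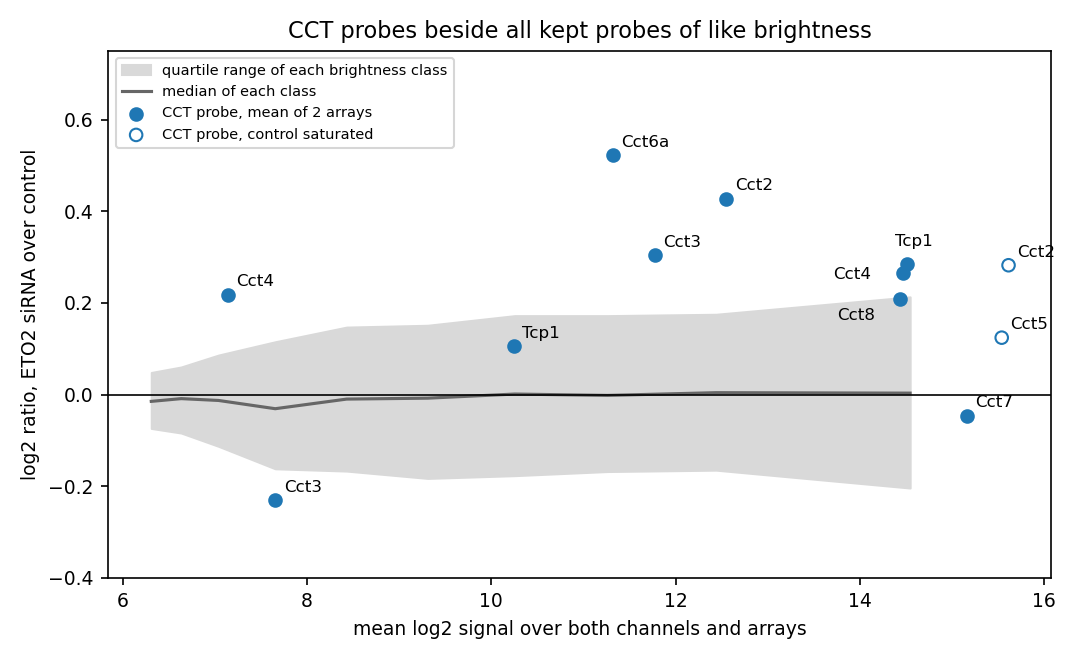
Mean log2 ratio of each CCT probe (points, open where the control channel was saturated) against its mean log2 signal over both channels, with the median (line) and the range between quartiles (grey band) of all kept probes in 10 brightness classes, drawn at the middle of each class. Cct6a and the unsaturated Cct2 probe stand well above the band, while Cct8, at 0.21, lies just inside it at the bright end.

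The same comparison was made with median centring, which applies no brightness-dependent correction. There the median of all kept probes was -0.28 and that of the brightest class was -0.60, against 0.044 in the dimmest class. CCT probes read below 0 with the others, at -0.33 for Tcp1 A_51_P164030, -0.35 for Cct4 A_51_P339503 and -0.40 for Cct8, while Cct6a stayed just above 0 at 0.045. When the median of each probe's own brightness class was subtracted, which is itself a coarse correction for brightness, 8 of the 10 unsaturated probes lay above it, and the median difference over those 10 was 0.23. The exceptions were Cct7 at -0.084 and the dimmer Cct3 probe at -0.20. The sign of the ratios thus depends on whether brightness is corrected for.

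**Figure D4:**
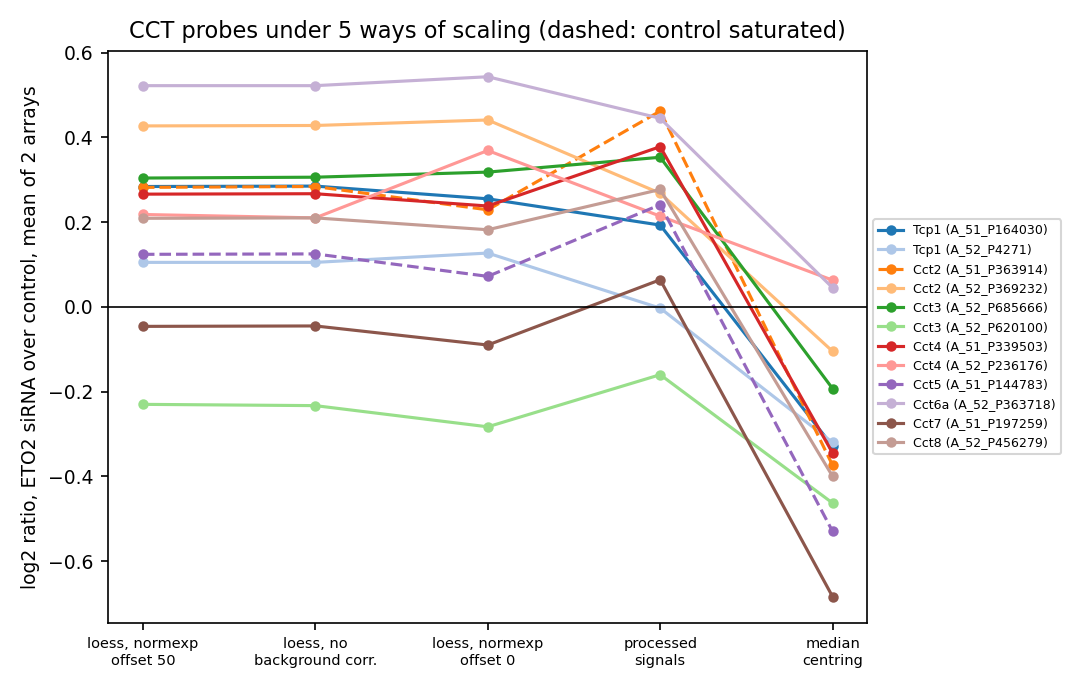
Mean log2 ratio (vertical axis) of each CCT probe under 5 ways of scaling (horizontal axis), 1 line per probe, dashed where the control channel was saturated. In each of the 3 loess settings and with the software's processed signals 10 of 12 probes lie above 0, though with the processed signals Cct7 is above and the dimmer Tcp1 probe below, and median centring puts 10 of 12 below 0.

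Apart from Cct2, 3 genes had 2 probes, and these gave unlike readings in some cases. For Cct3 the RefSeq probe A_52_P685666 and the clone probe A_52_P620100 lay on opposite sides of 0, with the clone probe at -0.32 and -0.14, a mean of -0.23 ± 0.13 or 0.853-fold. The gap between them was 0.52 on array 1 and 0.55 on array 2, larger than the SD of either probe. The clone probe was dim, with control spots of 256.09 and 266.79 units against 4634.6 and 3906.9 for the other. For Cct4 the probes read alike, with the clone probe A_52_P236176 at 0.11 and 0.33, a mean of 0.22 ± 0.15, and a gap of 0.048. For Tcp1 the clone probe A_52_P4271 read 0.20 and 0.014, a mean of 0.10 ± 0.13, so that the gap to A_51_P164030 was -0.054 on array 1 and 0.41 on array 2 and did not keep its sign. Which transcript each clone probe detects was not tested. Over the brightest probe of each gene, 6 of 8 were called higher and 0 lower (also 0 at an unadjusted p under 0.05 in limma), with a median of 0.27. These 8 include the saturated Cct2 and Cct5 probes, whose ratios are not read, and that Cct2 probe is among the 6. With 1 probe per gene, 18.4% of all probes were called higher and 22.3% lower, and again nothing is read from the count.

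The arrays differed more over the CCT probes than over most probes. On array 1 the median of the 12 was 0.15 and on array 2 it was 0.32, and 10 of 12 read higher on array 2, the exceptions being the clone probe of Tcp1 and the saturated Cct5. The median SD between arrays was 0.137 for the CCT probes and 0.0636 for all kept probes. For Tcp1 A_51_P164030 the SD stood at percentile 94.7 of all kept probes, for Cct4 A_51_P339503 at 89.8 and for Cct8 at 88.7. In the brightest class as a whole the median SD between arrays was 0.0597. The authors' deposited log ratios, turned to the same direction, had CCT medians of 0.18 and 0.38 on the 2 arrays. A fold such as 1.20 for Cct4 thus averages readings that are far apart.

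The proteins that work with CCT were taken from a list of 53 genes, of which 51 had a kept probe. With loess scaling 13 were called higher and 18 lower at an adjusted p under 0.05 in limma, and 20 did not pass. With 1 probe per gene, the brightest, 18.4% of all probes were called higher and 22.3% lower. The median log2 ratio of the partners was -0.036. Control spots were saturated for 5 of the 13 and for Hspd1 among the 18, which leaves 8 higher and 17 lower. With saturated probes left out, the brightest unsaturated probe of each gene was used where there was one. Of 48 genes, 11 were then called higher and 17 lower, where 17.7% and 20.7% of all probes were. With median centring 0 were called higher (0 also at an unadjusted p under 0.05 in limma) and 44 lower. That scaling called 63.7% of all kept probes lower. With the processed signals, where fewer probes passed in all, 5 were called higher, each with a saturated control spot, and 4 lower, namely Tuba1a, Actg1, Tubb2b and Vbp1. Every other rise or fall of a brightest probe named here was thus called with loess and not with the processed signals. The brightest probe of each gene was used.

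Prefoldin, the complex that delivers substrates to CCT, was split. Of its 7 listed genes, 2 rose with loess scaling, Pfdn2 at 0.20 ± 0.10 and Pfdn6 at 0.18 ± 0.04, both no longer called with an offset of 0, and Pfdn2 read 0.031 with the processed signals. The 3 that fell were Vbp1 at -0.35 ± 0.04 (0.786-fold, adjusted p = 0.000521 in limma), Pfdn1 at -0.34 ± 0.15 and Uri1, a prefoldin-like protein, at -0.26 ± 0.04. With the processed signals Vbp1 read -0.40 and was called, and Pfdn1 (-0.105) and Uri1 (-0.106) were not. All 4 listed cofactors of CCT, the phosducin-like Pdcl, Pdcl3 and Txndc9 and the CCT-binding Pdcd5, missed the threshold in both directions with loess scaling, adjusted and unadjusted, and were called lower with median centring. Their median was -0.003, where the brightest CCT probes, among them the saturated ones of Cct2 and Cct5, had a median of 0.27.

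Substrates of CCT included the strongest falls of the list. Tuba1a, an alpha-tubulin, read -1.19 and -1.07, a mean of -1.13 ± 0.09 or 0.457-fold (adjusted p = 6.84e-09 in limma). Actg1, cytoplasmic gamma-actin, read -0.88 and -0.61, a mean of -0.74 ± 0.19 or 0.597-fold (adjusted p = 1.39e-06 in limma). Tubb2b, a beta-tubulin, read -0.81 and -0.48, a mean of -0.64 ± 0.23 or 0.64-fold (adjusted p = 9.96e-06 in limma). These falls were also present with the processed signals, at -1.004, -0.59 and -0.90. With median centring these genes read -1.61, -1.32 and -0.96, but 63.7% of all kept probes were called lower there. The medians of their brightness classes under that scaling were -0.47, -0.60 and -0.31. Of the 14 actins and tubulins, 6 fell and 4 were called higher. Among the latter Tuba4a, Tuba1c and Tubb5 had a saturated control spot on both arrays and are given no fold. An unsaturated Tuba4a probe read 0.44 and was called higher with loess, and Tubb4a read 0.30 ± 0.03 with loess and 0.10 with the processed signals.

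Among 9 other substrates, Ccne1 (cyclin E1) at 0.52 ± 0.09 and Fzr1 (an activator of the anaphase-promoting complex) at 0.26 ± 0.0035 rose with loess, and read 0.33 and 0.070 with the processed signals. Vhl, the von Hippel-Lindau tumour suppressor, fell to -0.45 ± 0.01, Cdc20 to -0.26 ± 0.12 and the mitotic kinase Plk1 to -0.17 ± 0.02. With the processed signals Vhl read -0.18 and Cdc20 -0.094, and Plk1 turned to 0.058. Of the 6 tubulin cofactors, which act on tubulin after CCT has released it, 0 rose (1 at an unadjusted p under 0.05 in limma) and 3 fell, namely Tbca at -0.34 ± 0.14, Tbcc at -0.31 ± 0.08 and Tbce at -0.23 ± 0.05. These read -0.063, -0.079 and -0.029 with the processed signals.

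Relatives of CCT and other chaperones moved in both directions. The chaperonin-like genes Bbs10 (0.28 ± 0.09) and Bbs12 (0.24 ± 0.07), which assemble the BBSome of cilia, rose with loess, and Mkks, of the same group, fell by 0.28. Bbs10 read 0.14 with the processed signals. Hspe1, the mitochondrial co-chaperonin, fell by 0.31 ± 0.01, and read -0.20 with the processed signals. The probes of its partner Hspd1 disagree: the brighter one was saturated in the control channel, with the control at least 1.14-fold higher, and an unsaturated one read 0.070 and did not pass. The brighter Hspd1 probe was no longer called with an offset of 0 or with the processed signals (-0.051). Stip1, which links Hsp70 and Hsp90, rose to 0.43 ± 0.06 with loess and read 0.25 with the processed signals. The brightest probes of Hspa8 and Hsp90aa1 were called higher but had saturated control spots and are given no fold, and an unsaturated Hspa8 probe read 0.79 and was called higher with loess.

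**Figure D5:**
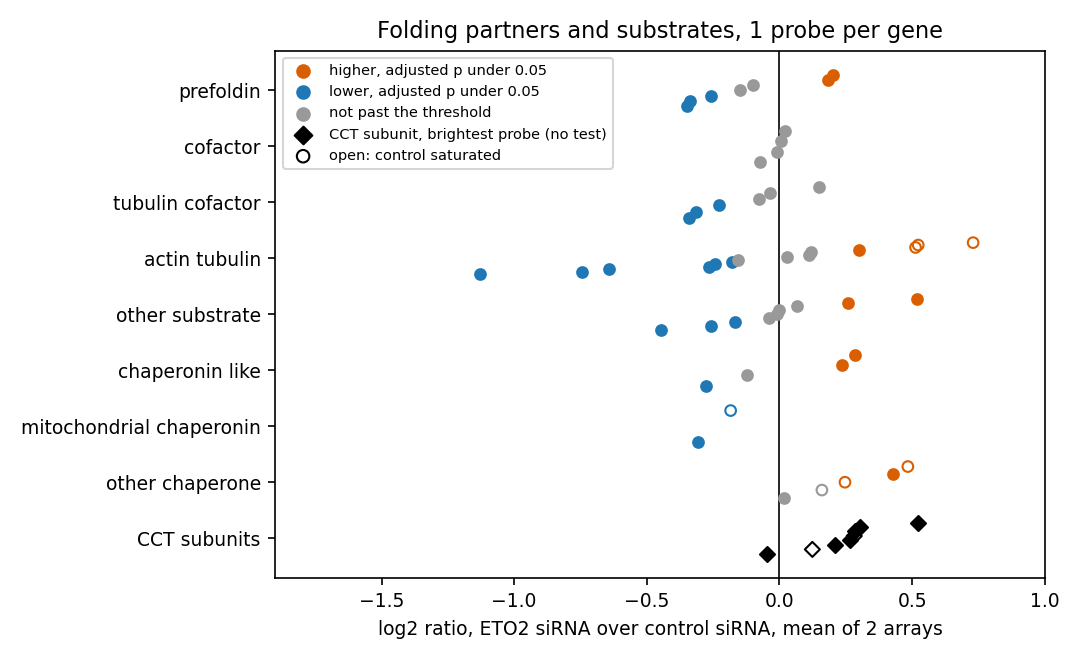
Mean log2 ratio of each folding partner with a kept probe (points, 1 per gene, by role; open where a channel was saturated) and of the brightest probe of each CCT gene (diamonds) with loess scaling. Actin and tubulin genes spread widest, from -1.13 for Tuba1a, and the diamonds other than Cct7 lie above 0.

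RefSeq promoter sequences (GRCm38.p6, 250 bases before the annotated start) were found for 7 of the 8 genes, with 9 entries, and not for Cct4. The CCAAT box, searched as CCAAT on both strands, was present in 4 of these 9 entries, against 33.8% of 32851 promoters in the table. By gene it was in 4 of 7 (Tcp1, Cct3, Cct6a and Cct7). Cct6a, with the highest ratio, and Cct7, whose only probe read near 0, both held it. The last 140 bases before the start of Cct3 (chr3:88296995-88297134, plus strand) and of Cct6a (chr5:129787216-129787355, plus strand) are printed as examples with 2 such matches each, in capitals, for the highest ratio and for the gene whose probes disagreed (Cct7 holds 2 as well); ATTGG is the same box read on the other strand.
Cct3: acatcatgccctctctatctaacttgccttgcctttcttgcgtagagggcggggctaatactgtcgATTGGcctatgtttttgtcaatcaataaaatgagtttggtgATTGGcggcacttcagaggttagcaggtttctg
Cct6a: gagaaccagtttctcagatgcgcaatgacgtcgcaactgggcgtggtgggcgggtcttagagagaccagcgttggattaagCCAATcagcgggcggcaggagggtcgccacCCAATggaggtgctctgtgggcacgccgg
A heat shock element, searched as GAANNTTC or TTCNNGAA on both strands, was found in 2 of the 9 entries (Cct2 and Cct5), against 12.8% of all promoters. An ETS site (CCGGAAGT, both strands) was found in 1 of the 9 (Cct8), against 2.9%, and the MYC E-box (CACGTG) in 0 of 9, against 6.0%. A GATA site (AGATAA or AGATAG, or TGATAA or TGATAG, both strands) was found in 2 of the 9 (Cct3 and Cct5), against 26.5%. The matches are letters in these windows and describe no binding.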

How the data were processed

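RNA of 2 two-colour Agilent arrays was compared. Spots were read with Agilent Feature Extraction 9.1.3.1, per the file headers, and the deposited intensity values (mean spot signal and local background) are linear and not normalized. The authors' deposited log10 ratio (red over green) had been computed from signals with background subtracted and dyes normalized, per the file headers. Saturation, background and outlier flags came from the same software. The sources used here do not give the genome build behind the probes.

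Spot signals were corrected by normexp (offset 50) and scaled by loess within each array in limma 3.58.1 (R 4.3.3). Control spots had weight 0 in loess and stayed out of tests. Spots flagged as outliers were dropped (10 and 4), and spots of a probe averaged. A probe was kept where the same channel, or both, stood well above background each time (24430 of 41174). Log2 ratios were tested against 0 in lmFit and eBayes (two-sided), and p-values were adjusted by Benjamini-Hochberg over all kept probes, at a threshold of 0.05. Each probe has 1 residual degree of freedom, to which eBayes added 14.45 prior degrees. The number of arrays limits the precision. The steps were also run on simulated data without a dye bias that depends on brightness, in which only unsaturated probes changed. That run tested neither the choice of scaling nor the saturated probes.

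Members and lists were chosen with earlier results of these data known. All CCT probes are described. Of the partners, up to 4 per list with the largest change past the threshold are named, and the other genes behind a count of 5 or fewer were named after their values were seen. A ratio against a saturated control is given as a bound, computed from loess and Aquantile-scaled channels, or not at all. Alternatives covered background correction, scaling, filters, saturated probes, 1 probe per gene and each array left out.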

Additional observations from a re-analysis of the deposited data

How the results depend on the processing

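The median CCT ratio of 0.24 stayed between 0.23 and 0.27 with an offset of 0, without background correction and with the processed signals. The same held without saturated probes and with 1 probe per gene. Dropping or tightening the filter on dim probes could not change it, since all 12 CCT probes were kept each time. The median was 0.28 without the clone probes and 0.27 without saturated probes and Cct7, alternatives chosen after seeing the data. Leaving out array 2 or array 1 gave 0.15 and 0.32. Median centring, which lacks a correction for brightness, turned the median to -0.34. It turned Cct2 A_51_P363914 to -0.37, Cct2 A_52_P369232 to -0.10, Cct3 A_52_P685666 to -0.19, Cct4 A_51_P339503 to -0.35, Cct5 to -0.53, Cct8 to -0.40 and Tcp1 A_51_P164030 to -0.33. The dimmer Tcp1 probe A_52_P4271 also changed sign, from 0.105 to -0.32.

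Over all probes, calls fell from 4581 higher and 5049 lower to 1411 and 1349 with the processed signals or the deposited ratios, for a cause that was not tested. There 2 of 12 CCT probes were called higher, where 5.78% of all kept probes were. At an unadjusted p under 0.05 in limma 7 CCT probes were higher, and the matching share of all probes is not given here. Median centring gave 760 higher and 15561 lower, so that 4.66% of calls were higher against 47.6%. With 1 probe per gene 3051 were higher, since fewer probes were tested. Folding partners numbered 5 higher and 4 lower with the processed signals or deposited ratios, and 0 higher (0 at an unadjusted p under 0.05 in limma) and 44 lower with median centring. An offset of 0 left 4 of 12 CCT probes called higher, where 16.6% of all kept probes were, against 8 where 18.8% were. Nothing is read from these CCT counts. No paired analysis was possible because each array already holds both groups and gives 1 ratio.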
